A study of Drosophila melanogaster with 48 samples.

Results

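The third day of pupal life was followed in wild-type *Drosophila melanogaster* by comparing whole bodies of 3-day pupae (P3) with those of 2-day pupae (P2). The comparison rests on 3 libraries of poly(A) RNA at each stage, 6 of the 48 libraries in the series, and on the 12282 of 17558 genes that reached 3 FPKM in any of the 48 libraries. FPKM divides the number of fragments on a gene by its length and by a library size, so that levels can be set beside each other between genes. Wild type is the line labelled wOB (w1118 in the paper, a strain mutant for the eye pigment gene *white*), and the *Ptth* mutants used for reference carry the line label ptth120BC2 (Ptth120F2A in the paper, a null allele with a small deletion in the last exon). *Ptth* encodes the prothoracicotropic hormone, a brain peptide that drives ecdysone synthesis. Pupae were marked as white pupae and collected at steps of 24 h, each library pooled about 15 animals by the labels or 10 to 15 by the paper, and neither source gives the sex of the pools. A pool of whole bodies mixes all tissues.

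By this time the pharate adult takes shape inside the puparium. The adult epidermis first lays down an envelope and an outer cuticle, shapes its hairs and bristles, and then deposits procuticle, which is tanned around eclosion. Flight muscles assemble their sarcomeres and fill with mitochondria, photoreceptors build the rhabdomeres that hold opsins, and the pulse of the steroid hormone 20-hydroxyecdysone that drove adult differentiation declines. In whole bodies, fewer cells of a type and less RNA per cell cannot be told apart.

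Genes were compared with limma on log2(FPKM + 1), where the added 1 shrinks the changes of weakly expressed genes, and a gene was called at an adjusted p under 0.05 (Benjamini-Hochberg over all 12282 genes) and a change above 2-fold. Of all tested genes 1874 (15.3%) were called, 1280 higher (10.4%) and 594 lower (4.84%) at P3, and these shares are the background for every count of list members below. The libraries of both stages did not overlap in 1873 of the 1874, which the call all but requires with 3 libraries a side. Lack of overlap therefore adds no support of its own for called genes, here or below. It is not read as support for uncalled genes either. More than 16-fold changes were called for 97 genes upward and 72 downward. The adjusted p alone was passed by 7768 genes. The median log2 change of all genes was 0.10, and 57.7% of genes lay above 0. Scaling moved this balance: quantile normalization put the median at -0.047 and called 844 higher and 821 lower (50.7% higher, against 68.3%), and median-of-ratios factors of the 6 libraries gave 964 higher and 723 lower (57.1%).

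Depth was 21058717 to 22280847 reads on genes at P2 and 20196015 to 24532497 at P3, and the 10 most abundant genes took 9.10% to 10.6% of the reads at P2 and 14.9% to 16.6% at P3. The library size that the FPKM values imply was 1.18 to 1.27 times the reads on genes at P2 and 0.893 to 0.923 times at P3. The values are thus not scaled to the reads on genes alone, and their scaling differed between the stages. Replicates differed by more than sampling noise and were each kept as 1 sample, with a chi-square per gene of 22.8 to 62.5 between P2 libraries and 8.11 to 9.83 between P3 libraries. P2 replicate 2 had the lowest summed levels of Cpr cuticle proteins, muscle proteins and respiratory chain subunits of the P2 libraries and the highest summed level of ecdysone response genes, and without it 2078 genes were called. It also had the most *roX1*, an RNA of the male dosage compensation complex (33.4, 55.4 and 39.6 FPKM at P2 and 61.3, 59.0 and 67.5 FPKM at P3). *roX1* did not overlap between the stages and was below the 2-fold limit (log2 0.57 ± 0.18 (SE), adjusted p = 0.038). In the mutants it was 29.7, 44 and 23.9 FPKM at P2 and 26.7, 31.7 and 46.5 FPKM at P3, which overlap. *Ptth* itself was 3.42, 1.88 and 2.57 FPKM at P2 and 2.71, 2.72 and 2.30 FPKM at P3 in wild type, with overlapping libraries. Salivary glue genes, which mark the larval salivary gland, summed to 0.212 to 0.316 FPKM at P2 and 0.0268 to 0.232 FPKM at P3.

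The Osiris genes, a family of insect proteins of the secretory and endosomal membranes of epithelia that make cuticle, held the largest changes in both directions. All 21 tested members were called, 16 lower and 5 higher at P3, against 4.84% and 10.4% of all genes. In the cluster on chromosome 3R (6173549 to 6341424 in the BDGP6 coordinates of the file, 168 kb), 14 members fell and 5 rose. *Osi3* (FBgn0037411, chromosome 3R, 6215832 to 6218199) was at 2242, 2648 and 1326 FPKM in the P2 libraries and 0.660, 0.0966 and 0.842 FPKM in the P3 libraries. The stages were far apart, and this was the largest drop among the genes named here (log2 -10.38 ± 0.32 (SE), adjusted p = 6.8e-06). *Osi12* was at 2481, 2016 and 1414 FPKM at P2 and 1.99, 1.85 and 1.45 FPKM at P3 (log2 -9.45 ± 0.21 (SE), adjusted p = 2.9e-06). *Osi1* read 399, 354 and 209.8 FPKM at P2 and 0, 0.0383 and 0 FPKM at P3 and was thus at or near 0 in every P3 library.

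Members at the far end of the same cluster did the reverse. *Osi15* (FBgn0037424, chromosome 3R, 6301804 to 6303653) was at 2.33, 0.718 and 1.44 FPKM in the P2 libraries and 1524, 1782 and 1732 FPKM in the P3 libraries, a log2 change of 9.44 ± 0.24 (SE) with an adjusted p of 3.9e-06. *Osi19* (FBgn0037429, chromosome 3R, 6335362 to 6337196) was at 2.16, 0.342 and 0.106 FPKM at P2 and 1076, 1314 and 1158 FPKM at P3 (log2 9.46 ± 0.40 (SE), adjusted p = 1.9e-05). These rises were the largest of the genes named here and differed by less than their errors. *Osi18* was at 0.803, 0.0558 and 0.0317 FPKM at P2 and 620.1, 770.3 and 644 FPKM at P3. *Osi20* was at 3.05, 1.34 and 1.21 FPKM at P2 and 1184, 1431 and 1303 FPKM at P3. *Osi13* rose to a much lower level, with 1.20 ± 0.965 FPKM at P2 and 8.92 ± 1.11 FPKM at P3 (mean ± SD, n = 3). Along the cluster, the 12 genes from *Osi1* to *Osi12* all fell, and of the rest only *Osi14* and *Osi17* did. Within the pupal days P1 to P4, expression of the family was brief. No member had a mean above 2.96 FPKM at P1 or above 6.28 FPKM at P4, so that the members that fell had their high level at P2 and those that rose at P3. *Osi15*, for example, was at 0.0299 ± 0.0324 FPKM (SD, n = 3) at P1 and 0.372 ± 0.223 FPKM at P4. Spread between libraries was larger at P2, where P2 replicate 3 had the lowest *Osi3*, *Osi12*, *Osi1* and *Osi4* levels.

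**Figure D1:**
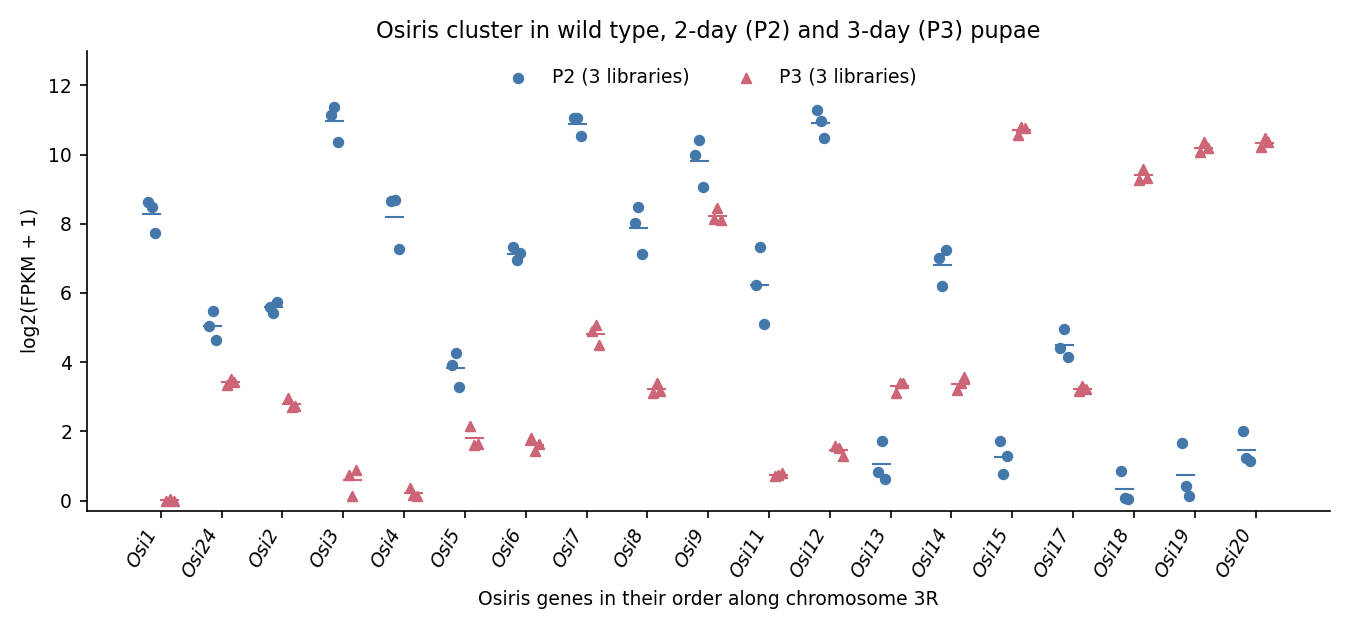
Level of each of the 19 Osiris genes in the 3R cluster as log2(FPKM + 1), in their order along the chromosome, with 1 point per wild-type library (circles P2, triangles P3) and a bar at the mean. The 14 members that fell stand high at P2, and *Osi13*, *Osi15*, *Osi18*, *Osi19* and *Osi20* stand high at P3.

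The zona pellucida (ZP) domain proteins shape the apical extracellular matrix of the epidermis and its hairs. Together with the Osiris genes they formed a list of 32 tested genes, of which 6 rose and 22 fell (median log2 change -2.63, against 0.10 over all genes). *mey* (morpheyus) and *tyn* (trynity) shape denticles in the embryo. *mey* was at 52, 93.3 and 20.6 FPKM at P2 and 3.28, 2.04 and 1.36 FPKM at P3. *tyn* was at 52.5, 108 and 25.3 FPKM at P2 and 6.29, 5.79 and 5.38 FPKM at P3. In both, P2 replicate 2 was the highest and P2 replicate 3 the lowest of the P2 libraries, and all P3 libraries were lower. *neo*, *nyo*, *cyr* and *m* (miniature) fell as well, and *neo* was the most uneven, at 47.1, 73.8 and 7.57 FPKM at P2 and 5.16, 5.04 and 3.78 FPKM at P3 (log2 -2.48 ± 0.80 (SE), adjusted p = 0.037). The ZP gene that rose was *zye*, at 6.47, 3.67 and 6.84 FPKM at P2 and 36.2, 32 and 34.9 FPKM at P3 (a log2 change of 2.44 ± 0.21 (SE) with an adjusted p of 2.5e-04). In 9 of the 32 genes, 8 of them Osiris genes, the change differed between wild type and mutants.

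Cuticle proteins with a chitin-binding Rebers-Riddiford domain (the Cpr family) are the bulk of the cuticle's protein. Of 66 tested members 37 rose and 9 fell (median 1.44), and their summed level was 6985, 4264 and 6942 FPKM in the P2 libraries and 36286, 39414 and 37101 FPKM in the P3 libraries. Changes above 16-fold were found in 15 that rose and 2 that fell. *Cpr76Bb* was at 12.1, 0.230 and 0.418 FPKM at P2 and 1196, 1281 and 1159.6 FPKM at P3, a log2 change of 8.74 ± 0.92 (SE) with an adjusted p of 5.9e-04. Its P2 libraries were uneven, replicate 1 being far above the others. *Cpr64Ab* was at 0.548, 0.192 and 0.365 FPKM at P2 and 426, 408 and 458 FPKM at P3 (log2 8.31 ± 0.11 (SE), adjusted p = 4.7e-07). *Cpr49Ab* was at 2.22, 2.08 and 0.898 FPKM at P2 and 575, 579 and 510.4 FPKM at P3. The family also held a gene with one of the steepest drops, *Cpr76Bc*, at 595, 621 and 418 FPKM at P2 and 1.55, 1.06 and 0.862 FPKM at P3 (a log2 change of -7.97 ± 0.19 (SE) with an adjusted p of 3.4e-06). It starts 525 bases downstream of the end of *Cpr76Bb* on the same strand of chromosome 3L, and the stages did not overlap in either gene.

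Among 54 other cuticle proteins (Tweedle, Lcp, Ccp84 and Acp65 families) 22 rose and 6 fell (median 0.61). *Acp65Aa*, an adult cuticle protein of the 65A cluster, was the most abundant of those named, at 75.1, 9.27 and 32.6 FPKM in the P2 libraries and 5645, 6509 and 5811 FPKM in the P3 libraries (log2 7.65 ± 0.70 (SE), adjusted p = 3.4e-04). At P1 it was at 0.171 ± 0.148 FPKM and at P4 at 238 ± 78.5 FPKM. The Tweedle gene *TwdlBeta* was at 0.739, 0.593 and 0.731 FPKM at P2 and 633, 653 and 700.2 FPKM at P3 with little spread (a log2 change of 8.62 ± 0.06 (SE) with an adjusted p of 1.4e-07). *Lcp65Ac* was at 2.54, 1.40 and 5.74 FPKM at P2 and 152, 168 and 158 FPKM at P3. *Ccp84Ag* was at 0.448, 2.49 and 0.147 FPKM at P2 and 94.2, 72.5 and 80.1 FPKM at P3. The stages did not overlap in any of these genes. Of the 37 Cpr genes that rose, 31 had their highest mean of the 4 pupal days at P3 in wild type, and 31 did so in the mutants (83.8% each), against 53.2% and 44.5% of all genes called higher. The wild-type libraries had also made the calls, and those of the mutants had no part in them. For the other cuticle proteins this was 18 of 22 in wild type and 20 of 22 in the mutants.

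Chitin genes fell more often than they rose. Chitin is the polysaccharide of the cuticle, and of 32 genes for its synthesis, organization and turnover 6 rose and 12 fell (median -0.55). *kkv*, the chitin synthase of the cuticle, was at 95.9, 94.4 and 90.1 FPKM at P2 and 45.7, 40.2 and 40.4 FPKM at P3. *knk* (knickkopf), *rtv* (retroactive), *serp* and *verm*, which organize or deacetylate the new chitin, fell too. So did the chitinase genes *Cht2*, *Cht5*, *Cht8* and *Cht3* (*Cht10*), whose products degrade old cuticle. *Cht5* was at 36.6, 48 and 33.4 FPKM at P2 and 4.60, 4.42 and 3.79 FPKM at P3 (log2 -2.92 ± 0.15 (SE), adjusted p = 3.6e-05). *Cht3* was at 53.8, 64.3 and 43.5 FPKM at P2 and 6.71, 6.56 and 6.34 FPKM at P3. *Cht5* was far higher on the days around, at 990.0 ± 42.6 FPKM at P1 and 416 ± 46.9 FPKM at P4. The chitin deacetylase *Cda4* was at 158, 130.2 and 213 FPKM at P2 and 27.7, 28.5 and 25.3 FPKM at P3, a log2 change of -2.55 ± 0.18 (SE) with an adjusted p of 1.2e-04. Those that rose included the chitinase-related growth factor *CG5210* (*Idgf6*), at 54.3, 40.2 and 53.8 FPKM at P2 and 307, 343 and 329.8 FPKM at P3 (a log2 change of 2.71 ± 0.13 (SE) with an adjusted p of 2.9e-05). *Idgf2*, *Idgf4* and *Idgf5* of the same family rose as well.

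Tanning of the cuticle uses catecholamines, and several enzymes that make them rose. The list of sclerotization and pigmentation genes had 8 of 21 members higher and 1 lower (median 0.67). *ple*, tyrosine hydroxylase, was at 2.57, 2.49 and 2.87 FPKM in the P2 libraries and 152, 132 and 159.9 FPKM in the P3 libraries, a log2 change of 5.35 ± 0.09 (SE) with an adjusted p of 9.0e-07. *Ddc*, dopa decarboxylase, was at 2.47, 2.46 and 2.45 FPKM at P2 and 98.6, 107 and 103 FPKM at P3 (log2 4.91 ± 0.05 (SE), adjusted p = 2.3e-07). Both enzymes act in sequence to give dopamine. The β-alanyl-dopamine synthase *e* (ebony) was at 5.50, 4.12 and 2.24 FPKM at P2 and 55.3, 56.6 and 52.7 FPKM at P3. *b* (black), which supplies β-alanine, was at 7.31, 4.89 and 10.1 FPKM at P2 and 61.3, 66.6 and 67 FPKM at P3. The stages did not overlap in any of these 4 genes, and the means of all 4 were still higher at P4, where *ple* reached 1789.5 ± 135 FPKM. *yellow-c*, at 12.6, 8.81 and 12.4 FPKM at P2 and 63.2, 77.7 and 75 FPKM at P3, and *yellow-b* also rose. The only member called lower was *y* (yellow), needed for black pigment.

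**Figure D2:**
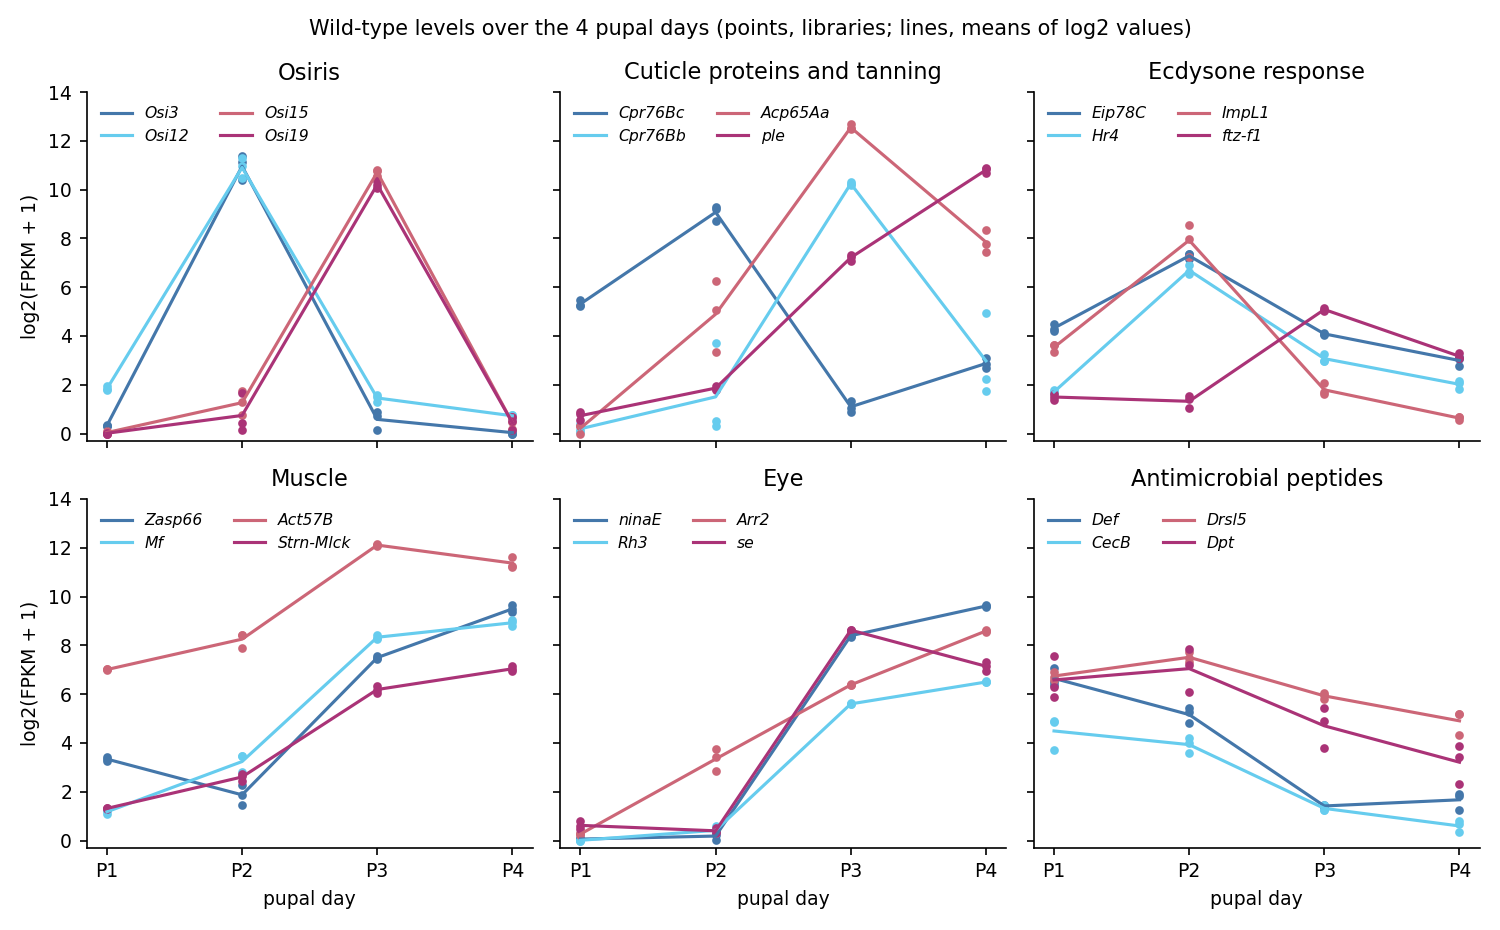
Wild-type level of 24 named genes as log2(FPKM + 1) at P1, P2, P3 and P4, with 1 point per library and lines through the means of 3 libraries. *Osi3* and *Osi12* stand high only at P2 and *Osi15* and *Osi19* only at P3 of these 4 days, while *ple*, *ninaE*, *Zasp66* and *Arr2* are higher at P4 than at P3.

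Ecdysone response genes fell more often than they rose. 20-hydroxyecdysone acts through the receptor EcR/Usp, switches on early genes such as *Eip75B* and *Eip78C*, which encode nuclear receptors, and, once it declines, allows *ftz-f1* to be expressed. Of 27 listed genes 10 fell and 1 rose (median -0.24), and the summed level was 1046, 1265 and 883 FPKM at P2 and 328, 329 and 331 FPKM at P3. *ImpL1*, an ecdysone-inducible gene of imaginal discs, was at 252, 378 and 148 FPKM at P2 and 3.17, 2.27 and 2.05 FPKM at P3 (a log2 change of -6.13 ± 0.35 (SE) with an adjusted p of 5.2e-05). The nuclear receptor genes *Hr4* and *Eip78C* had little spread. *Hr4* was at 98.4, 92.1 and 118 FPKM at P2 and 8.47, 6.90 and 6.94 FPKM at P3 (log2 -3.62 ± 0.12 (SE), adjusted p = 8.7e-06). *Eip78C* was at 142, 161 and 162 FPKM at P2 and 15.9, 16.4 and 15.6 FPKM at P3 (log2 -3.20 ± 0.06 (SE), adjusted p = 2.0e-06). *Eip75B* was at 48.9, 48 and 42.1 FPKM at P2 and 14.2, 13.1 and 13.8 FPKM at P3 (log2 -1.69 ± 0.07 (SE), adjusted p = 2.0e-05). The stages did not overlap in any of them.

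The one member that rose was *ftz-f1*, a nuclear receptor that confers competence for the next hormone response. It was at 1.89, 1.04 and 1.65 FPKM in the P2 libraries and 32.6, 31.7 and 34.7 FPKM in the P3 libraries, a log2 change of 3.76 ± 0.14 (SE) with an adjusted p of 1.2e-05, and its level was lower on the days around (1.83 ± 0.269 FPKM at P1, 8.01 ± 0.808 FPKM at P4). The other members called lower were *ImpE1*, *ImpE2*, *ImpE3*, *vri*, *Blimp-1* and *Eip71CD*. *Blimp-1*, a repressor of *ftz-f1*, was at 3.48, 4.41 and 1.87 FPKM at P2 and 0.323, 0.173 and 0.131 FPKM at P3 (log2 -1.77 ± 0.24 (SE), adjusted p = 0.0015). *ImpE2* was at 156, 202 and 111 FPKM at P2 and 16.7, 22 and 19.3 FPKM at P3, after 1633 ± 46.1 FPKM at P1. *vri*, also a repressor in the circadian clock, was at 18.5, 34.9 and 9.87 FPKM at P2 and 2.98, 2.68 and 2.61 FPKM at P3 with uneven P2 libraries (a log2 change of -2.39 ± 0.42 (SE) with an adjusted p of 0.004).

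The receptor genes themselves were not called. *EcR* was at 6.17, 7.84 and 4.28 FPKM at P2 and 8.37, 8.23 and 8.63 FPKM at P3, without overlap but with an uneven P2 group (log2 0.44 ± 0.19 (SE), adjusted p = 0.087). *usp* was at 16.1, 15.7 and 13.5 FPKM at P2 and 13.4, 13.4 and 12.1 FPKM at P3 (adjusted p = 0.077). *Hr46* (*Hr3*), an activator of *ftz-f1*, was at 10.3, 10.3 and 10.7 FPKM at P2 and 8.33, 7.82 and 8.62 FPKM at P3, a log2 change of -0.31 that passed the adjusted p (0.0047) and not the fold limit. *Eip74EF* and *Eip93F*, early genes of the response, had log2 changes of -0.35 ± 0.13 (SE) and 0.29 ± 0.07 (SE). Not called either were *br*, *Hr38*, *Hr39*, *Hr78*, *ImpL2*, *ImpL3*, *Eip63E*, *Eip55E*, *tai*, *Kr-h1* and *Eig71Ea*, with log2 changes from -0.25 for *ImpL2* to 0.19 for *Eig71Ea*.

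Of 8 genes of ecdysteroid synthesis and breakdown 1 was called. *Cyp18a1*, which inactivates the hormone, was at 8.25, 9.70 and 6.14 FPKM at P2 and 3.04, 3.08 and 3.29 FPKM at P3 (log2 -1.11 ± 0.15 (SE), adjusted p = 0.0016), and the call was lost without P2 replicate 2 (log2 -0.97). The peptides and receptors that drive ecdysis had a median log2 change of 0.34, and their summed level was 20.8, 19 and 21.1 FPKM at P2 and 34.2, 33.9 and 36.7 FPKM at P3. Of 7 tested 1 was called, *rk*, the receptor of the tanning hormone bursicon, at 1.45, 1.02 and 1.17 FPKM at P2 and 7.67, 6.99 and 8.61 FPKM at P3 (a log2 change of 1.99 ± 0.11 (SE) with an adjusted p of 4.2e-05). The bursicon subunits *Burs* and *Pburs* had log2 changes of 0.54 ± 0.08 (SE) and 0.28 ± 0.10 (SE), *ETHR*, the ecdysis-triggering hormone receptor, 0.66 ± 0.12 (SE), *CCAP* 0.34 ± 0.13 (SE), *Mip* 0.24 ± 0.13 (SE) and the eclosion hormone *Eh* 0.22 ± 0.22 (SE), all uncalled. *Burs* and *ETHR* passed the adjusted p (0.0018 and 0.004) with changes under 2-fold. *tim* was the clock gene called higher (log2 1.47 ± 0.11 (SE), adjusted p = 1.4e-04), *vri* the one called lower, of 8.

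Sarcomere genes made one of the most uniform lists. Of 37 genes of the myofibril 30 rose and 0 fell (median 2.40). Summed, they were at 7981, 6041 and 8072 FPKM in the P2 libraries and 39621, 40086 and 40832 FPKM in the P3 libraries, and they had been at 914 to 982 FPKM at P1. *Act57B*, an actin of muscle, was at 346, 235 and 347 FPKM in the P2 libraries and 4381, 4359 and 4511 FPKM in the P3 libraries, 14.3-fold higher as a ratio of means (a log2 change of 3.86 ± 0.17 (SE) with an adjusted p of 2.4e-05). Parts of the Z-disc and of the thick filament had the largest changes. *Zasp66*, a Z-disc protein, was at 3.82, 1.78 and 2.66 FPKM at P2 and 176, 174 and 189 FPKM at P3 (log2 5.62 ± 0.20 (SE), adjusted p = 1.0e-05). *Mf* (myofilin), of the thick filament, was at 10.003, 5.94 and 9.97 FPKM at P2 and 308, 317 and 338 FPKM at P3 (a log2 change of 5.09 ± 0.19 (SE) with an adjusted p of 1.3e-05). *Strn-Mlck*, a giant kinase related to titin, was at 5.68, 4.46 and 5.17 FPKM at P2 and 79.9, 65.4 and 71.3 FPKM at P3. P2 replicate 2 was the lowest P2 library for these 4 genes, and the stages did not overlap. The 7 members that were not called lay between -0.79 (*Argk*) and 0.80 (*Msp300*) on the log2 scale.

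Flight muscle is fed by mitochondria. Of 80 nuclear genes of oxidative phosphorylation 55 rose and 0 fell (median 1.20), with sums of 13209, 10556 and 13508 FPKM at P2 and 32499, 33862 and 33085 FPKM at P3. Here scaling mattered: 48 were called by limma-voom on recovered reads and 48 with median-of-ratios factors, but 15 with quantile normalization. *Cyt-c-p*, the main cytochrome c, was at 136, 98.3 and 133 FPKM at P2 and 1522, 1611 and 1596 FPKM at P3 (a log2 change of 3.69 ± 0.14 (SE) with an adjusted p of 1.2e-05). *sesB*, the ADP/ATP carrier, was at 287, 242 and 283 FPKM at P2 and 1877, 1889.6 and 1978 FPKM at P3 (log2 2.82 ± 0.09 (SE), adjusted p = 8.1e-06). Their libraries did not overlap between the stages. The ATP synthase subunits *ATPsyn-beta* and *CG1746* (*ATPsynC*) had smaller log2 changes of 1.62 ± 0.12 (SE) and 1.55 ± 0.12 (SE). All 55 genes called had their highest mean of the pupal days at P4 in wild type, and 55 did so in the mutants. Among all genes called higher the shares were 45.9% in wild type and 53.3% in the mutants.

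In the tricarboxylic acid cycle 15 of 16 genes rose (median 1.42; 8 rose and 1 fell with quantile normalization). *kdn*, citrate synthase, was at 296, 218 and 289 FPKM at P2 and 1029.9, 1013 and 1027 FPKM at P3. *Nc73EF*, of the oxoglutarate dehydrogenase, was at 57.4, 47.9 and 56.3 FPKM at P2 and 231, 213 and 225 FPKM at P3 (log2 2.03 ± 0.08 (SE), adjusted p = 1.6e-05). *l(1)G0156*, an isocitrate dehydrogenase subunit, and *Acon*, aconitase, rose with log2 changes of 1.79 ± 0.10 (SE) and 1.72 ± 0.09 (SE). In glycolysis 9 of 15 rose and 0 fell (median 1.26; 5 with quantile normalization). *Pfk*, phosphofructokinase, was at 20.5, 24.5 and 21.1 FPKM at P2 and 157, 146 and 153 FPKM at P3 (a log2 change of 2.74 ± 0.08 (SE) with an adjusted p of 4.8e-06). *Gpdh* and *Gpo-1* form the glycerophosphate shuttle of flight muscle. *Gpdh* was at 17.5, 17 and 18.4 FPKM at P2 and 68.9, 65.9 and 72 FPKM at P3. *Gpo-1* was at 114, 80.6 and 117 FPKM at P2 and 493, 469 and 457 FPKM at P3. *GlyP*, glycogen phosphorylase, was at 24.9, 20.1 and 22.7 FPKM at P2 and 331, 317 and 322 FPKM at P3 (log2 3.79 ± 0.08 (SE), adjusted p = 2.5e-06).

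The number of mitochondrial genome transcripts called changed with the setting. Of 23 tested 5 were called higher (median 0.84), 1 by limma-voom or with median-of-ratios factors, 0 with quantile normalization and 10 with the *roX1* level as a covariate. In the mutants 12 of the 23 were called higher (median 1.06). *mt:ATPase6* was at 1729, 1624 and 2432 FPKM at P2 and 4297, 4401 and 5208 FPKM at P3 (a log2 change of 1.28 ± 0.20 (SE) with an adjusted p of 0.0028), or 0.29 on the log2 scale with quantile normalization. *mt:ND1* had a log2 change of 1.11 ± 0.17 (SE) that dropped to 0.99 without P2 replicate 2. *mt:ND3* and *mt:ND4* had log2 changes of 1.05 ± 0.20 (SE) and 1.01 ± 0.17 (SE).

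Opsin genes rose in the whole bodies. Opsins are the light receptors of photoreceptors, and of 6 tested 5 rose and 0 fell (median 3.33), with sums of 2.83, 3.50 and 2.66 FPKM at P2 and 429.9, 409 and 449.5 FPKM at P3. *ninaE* (Rh1; FBgn0002940), the opsin of the outer photoreceptors, was at 0.167, 0.223 and 0.0254 FPKM in the P2 libraries and 336, 319 and 353 FPKM in the P3 libraries, a log2 change of 8.21 ± 0.08 (SE) with an adjusted p of 2.3e-07. *Rh3*, a UV opsin of inner photoreceptors, was at 0.299, 0.229 and 0.492 FPKM at P2 and 46.9, 48.7 and 46.8 FPKM at P3 (log2 5.18 ± 0.09 (SE), adjusted p = 1.0e-06). The other UV opsin *Rh4* was at 1.23, 1.42 and 1.04 FPKM at P2 and 28.4, 25.2 and 29.5 FPKM at P3. Most inner photoreceptors express 1 opsin each. The blue opsin *Rh5* was at 0.457, 0.856 and 0.487 FPKM at P2 and 11.3, 9.92 and 13.4 FPKM at P3. *Rh2*, of the ocelli, was at 0.0830, 0.104 and 0.0295 FPKM at P2 and 5.38, 5.18 and 5.73 FPKM at P3. None of these 5 overlapped between the stages. The green opsin *Rh6* was the exception, at 0.128, 0.12 and 0.164 FPKM at P2 and 0.801, 0.362 and 0.538 FPKM at P3, with a log2 change of 0.45 ± 0.10 (SE) and an adjusted p of 0.01. It was called by limma-voom (1.73) and with a pseudocount of 0.1 (1.44), which shrink low levels less, and its mean was 21.8 ± 3.37 FPKM at P4.

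Of 24 phototransduction genes 15 rose and 0 fell (median 1.31). *Gbeta76C*, the eye's G protein β subunit, was at 4.72, 3.16 and 5.16 FPKM at P2 and 87.2, 89.7 and 86.0 FPKM at P3 (a log2 change of 4.07 ± 0.15 (SE) with an adjusted p of 1.2e-05). Arrestins silence rhodopsin. *Arr2* was at 9.84, 6.11 and 12.5 FPKM at P2 and 82.6, 81.0 and 83.2 FPKM at P3. *Arr1* was at 0.824, 1.52 and 1.17 FPKM at P2 and 18.7, 16.4 and 20.8 FPKM at P3. *ninaC*, a myosin kinase of the rhabdomere, was at 15.3, 13.4 and 16.4 FPKM at P2 and 88.4, 83.7 and 88.8 FPKM at P3 (log2 2.46 ± 0.08 (SE), adjusted p = 7.5e-06). Others were not called: *norpA*, the phospholipase C, had a log2 change of 0.12 (5.60 and 6.19 FPKM as means), *Galphaq* -0.27 and *trpl* 0.96. Of 10 retina genes 4 rose and 0 fell (median 0.24). *eys* and *prom* act on the gap between rhabdomeres, *chp* on rhabdomere adhesion, and *Cpn* (calphotin) buffers calcium. *prom* was at 5.63, 5.55 and 6.02 FPKM at P2 and 38, 32.5 and 36.2 FPKM at P3. *eys* was at 10.6, 8.75 and 9.43 FPKM at P2 and 45.2, 39.2 and 39.5 FPKM at P3. The stages did not overlap in these 2 genes, nor in the next 2. *chp* was at 29.4, 23.1 and 30.5 FPKM at P2 and 102, 87.3 and 97.0 FPKM at P3. *Cpn* was at 1.89, 1.10 and 1.48 FPKM at P2 and 18.4, 16 and 17.2 FPKM at P3. The means of *prom* and *eys* were lower again at P4 (6.33 ± 1.35 FPKM and 10.3 ± 0.436 FPKM), whereas that of *Cpn* was higher (71.6 ± 7.54 FPKM).

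Of 18 eye pigment genes 6 rose and 1 fell, and the median of -0.017 lay below the 0.10 of all genes. The named genes of pteridine synthesis were among those that rose. *se* (sepia), a pyrimidodiazepine synthase of the red drosopterin pathway, was at 0.412, 0.30 and 0.244 FPKM in the P2 libraries and 395, 386 and 398 FPKM in the P3 libraries, a log2 change of 8.22 ± 0.06 (SE) with an adjusted p of 1.4e-07. *Pu*, the GTP cyclohydrolase at the start of that pathway, was at 21.4, 26.4 and 23.7 FPKM at P2 and 446, 476 and 485 FPKM at P3 (log2 4.25 ± 0.09 (SE), adjusted p = 2.0e-06). *pr* (purple) and *Hn* (Henna) also rose, with log2 changes of 1.69 ± 0.08 (SE) and 1.85 ± 0.09 (SE). *v* (vermilion), the tryptophan oxygenase of the brown ommochromes, and *bw* (brown), a pigment transporter, rose too, *bw* by 1.11 on the log2 scale. *cd* (cardinal), an ommochrome gene, fell by 1.43 on that scale.

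Genes of the nervous system were counted in 3 lists. Of 36 synaptic genes 9 rose and 0 fell (median 0.45; 5 with quantile normalization). *Gad1*, which makes GABA, was at 5.96, 4.82 and 6.74 FPKM at P2 and 41, 38.1 and 39.7 FPKM at P3 (a log2 change of 2.58 ± 0.11 (SE) with an adjusted p of 2.1e-05). *Cha*, choline acetyltransferase, was at 1.93, 1.60 and 1.84 FPKM at P2 and 7.57, 7.26 and 7.85 FPKM at P3. *cpx* (complexin) and *VGAT*, the GABA transporter of vesicles, had log2 changes of 1.44 ± 0.07 (SE) and 1.19 ± 0.07 (SE). Of 44 genes of axon guidance and wiring 0 were called by limma, with log2 changes from -0.55 to 0.98; 29 had an unadjusted p under 0.05, limma-voom called 2 higher, and the fit with the *roX1* level as a covariate called 1 higher. Of 32 other neuropeptide genes 7 rose and 1 fell (median 0.54), or 3 and 1 with quantile normalization. *Nplp2* was at 2.66, 2.38 and 5.15 FPKM at P2 and 49.3, 47.7 and 49.2 FPKM at P3 (log2 3.55 ± 0.23 (SE), adjusted p = 8.8e-05). *Proc* (proctolin) was at 0.478, 0.340 and 0.407 FPKM at P2 and 4.42, 3.91 and 5.21 FPKM at P3. *Ilp1*, an insulin-like peptide and the one neuropeptide gene called lower, was at 5.44, 5.63 and 4.59 FPKM at P2 and 1.61, 0.956 and 0 FPKM at P3 (a log2 change of -1.85 ± 0.35 (SE) with an adjusted p of 0.0054). *Nplp3* was called at an adjusted p of 0.045 and lost the call under 8 alternatives, among them each of 4 left-out libraries.

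Odorant binding proteins carry odours in the sensillum lymph. Of 38 tested 8 rose and 2 fell (median 0.21). Their summed level was nevertheless lower at P3, with 9125, 7495.5 and 8749 FPKM at P2 and 5006, 5500 and 5711 FPKM at P3. In the mutants it was 6770 to 8441 FPKM at P2 and 5097 to 5754 FPKM at P3. *Obp83a*, an antennal member, was at 0.0383, 0.287 and 0.0817 FPKM at P2 and 5.44, 4.91 and 5.47 FPKM at P3. *Obp56d* was at 1.72, 1.31 and 1.0 FPKM at P2 and 17.3, 13.7 and 13.9 FPKM at P3. Both were low in all P2 libraries and did not overlap. *Obp56a* was at 324, 429 and 234 FPKM at P2 and 22.3, 25.5 and 25.8 FPKM at P3 (a log2 change of -3.65 ± 0.22 (SE) with an adjusted p of 6.7e-05), after 3699 ± 415 FPKM at P1. *Obp73a* was at 129, 102 and 79.8 FPKM at P2 and 0.275, 0.114 and 0.406 FPKM at P3 (log2 -6.35 ± 0.19 (SE), adjusted p = 6.2e-06). It lies within *Cpr73D* on the other strand, a gene that rose by 4.04 on the log2 scale, and whether counting used strand is not stated. Only 2 of 60 odorant receptors and 5 of 120 gustatory and ionotropic receptors reached 3 FPKM in any library, and 1 of these, *Ir7g*, was called (log2 -1.42 ± 0.19 (SE), adjusted p = 0.0014).

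Antimicrobial peptide genes, induced through the NF-κB factors of the Toll and Imd pathways, were lower at P3. Of 16 tested 0 rose and 11 fell (median -1.46), against 10.4% and 4.84% of all genes, and the summed level was 1004, 936 and 779 FPKM at P2 and 329.9, 403 and 379.8 FPKM at P3. *Def* (defensin) was at 37.4, 41.8 and 26.8 FPKM in the P2 libraries and 1.61, 1.67 and 1.72 FPKM in the P3 libraries, a log2 change of -3.74 ± 0.16 (SE) with an adjusted p of 2.2e-05. The cecropin gene *CecB* was at 14.9, 17.7 and 10.9 FPKM at P2 and 1.39, 1.36 and 1.74 FPKM at P3. *CecC* was at 19.1, 29.8 and 19.7 FPKM at P2 and 1.95, 5.99 and 3.01 FPKM at P3. All P3 libraries were below all P2 libraries in these 3 genes. *Drsl5*, related to the antifungal drosomycin, was at 177, 159 and 212 FPKM at P2 and 54.1, 64.3 and 61.7 FPKM at P3 (log2 -1.58 ± 0.12 (SE), adjusted p = 1.7e-04). The diptericins were uneven within P2. *Dpt* (*DptA*) was at 232, 144 and 66.9 FPKM at P2 and 28.8, 12.8 and 41.8 FPKM at P3 (log2 -2.34 ± 0.59 (SE), adjusted p = 0.016). *DptB* was at 55.6, 42.7 and 3.86 FPKM at P2 and 1.08, 1.09 and 3.88 FPKM at P3 (log2 -3.05 ± 1.00 (SE), adjusted p = 0.039). P2 replicate 3 was the lowest P2 library for *Dpt*, *DptB*, *AttC*, *Mtk* and *Dro*.

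The attacin gene *AttD* was at 54.3, 50.7 and 77.9 FPKM at P2 and 21.5, 30.5 and 20.5 FPKM at P3. *Mtk* (metchnikowin) was at 24.4, 25 and 10.4 FPKM at P2 and 4.0, 4.81 and 4.73 FPKM at P3. *AttC* was at 8.35, 18.5 and 2.60 FPKM at P2 and 0.954, 1.38 and 1.70 FPKM at P3. Its P2 libraries spread more than those of *AttD*. *CecA1* was at 1.89, 3.97 and 3.44 FPKM at P2 and 0.316, 0.524 and 0.935 FPKM at P3, and *Drsl3* at 48.1, 57.4 and 105 FPKM at P2 and 38.9, 24.3 and 34.3 FPKM at P3. The stages overlapped in *DptB*, where P2 replicate 3 and P3 replicate 3 had near-equal values, and in none of the other 10 called members. The calls of *DptB*, *AttC* and *Drsl3* were weak. *DptB* and *AttC* lost theirs by limma-voom, with the replicate block and on leaving out any library but P2 replicate 3 (log2 -3.46 to -2.40 for *DptB* and -2.01 to -1.32 for *AttC*). *Drsl3* lost its call without P2 replicate 2, P2 replicate 3 or any P3 library (-1.17 to -0.70). Of the 5 not called, *Dro* (drosocin) was at 48.8, 40.9 and 12.2 FPKM at P2 and 7.68, 13.3 and 15.6 FPKM at P3 (adjusted p = 0.096). *Drs* (drosomycin) was at 262, 283 and 199 FPKM at P2 and 158, 228 and 176 FPKM at P3 (adjusted p = 0.11). *Drsl2*, *AttB*, a near copy of another attacin gene, and *Listericin* had log2 changes of -0.72 ± 0.26 (SE), -1.004 ± 0.50 (SE) and -0.28 ± 0.16 (SE). *Dro* and *AttB* passed once P2 replicate 3 was left out (log2 -1.85 and -1.54).

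Upstream, 1 of 36 genes of recognition and NF-κB signalling rose and 3 fell (median -0.13). *pll*, the kinase pelle of the Toll pathway, was at 28.5, 27.6 and 29 FPKM at P2 and 7.86, 8.72 and 7.01 FPKM at P3 (a log2 change of -1.73 ± 0.08 (SE) with an adjusted p of 2.7e-05). *Tl* (Toll), which also patterns embryos and muscles, was at 22.2, 23.5 and 23.6 FPKM at P2 and 11.3, 10.3 and 11.1 FPKM at P3 (log2 -1.02 ± 0.06 (SE), adjusted p = 4.9e-05) and slipped under the fold limit without P3 replicate 2 (-0.98). *pll* and *Tl* act in one pathway. *PGRP-SB1*, a peptidoglycan recognition protein, was at 31.7, 31.5 and 18.4 FPKM at P2 and 6.03, 6.14 and 9.25 FPKM at P3. *GNBP2* was at 4.48, 2.41 and 4.24 FPKM at P2 and 12.3, 11.1 and 11.9 FPKM at P3. Of 14 Bomanin and Daisho genes, peptides of the Toll response, *CG15067* (*BomBc2*) and *CG15068* (*BomS6*) were called higher (median of the list -0.028). *CG15067* was at 0.159, 0.299 and 0.170 FPKM at P2 and 2.64, 6.50 and 4.98 FPKM at P3. *CG15068* was at 0.382, 0.894 and 0 FPKM at P2 and 2.71, 5.61 and 3.20 FPKM at P3. Of 16 blood cell genes 7 rose and 0 fell (median 0.71). *eater*, a phagocytosis receptor, was at 0.584, 0.493 and 0.525 FPKM at P2 and 12.5, 15.5 and 13.8 FPKM at P3 (a log2 change of 3.28 ± 0.09 (SE) with an adjusted p of 4.3e-06). Blood cells and fat body secrete collagen IV. Its chain *Cg25C* (*Col4a1*) was at 91.9, 74.9 and 93.2 FPKM at P2 and 340.1, 302 and 289 FPKM at P3. The other chain, *vkg*, was at 53.2, 45.4 and 55 FPKM at P2 and 203, 178 and 174 FPKM at P3. *NimB5* was at 5.61, 3.43 and 4.91 FPKM at P2 and 17.5, 17.5 and 18.4 FPKM at P3.

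**Figure D3:**
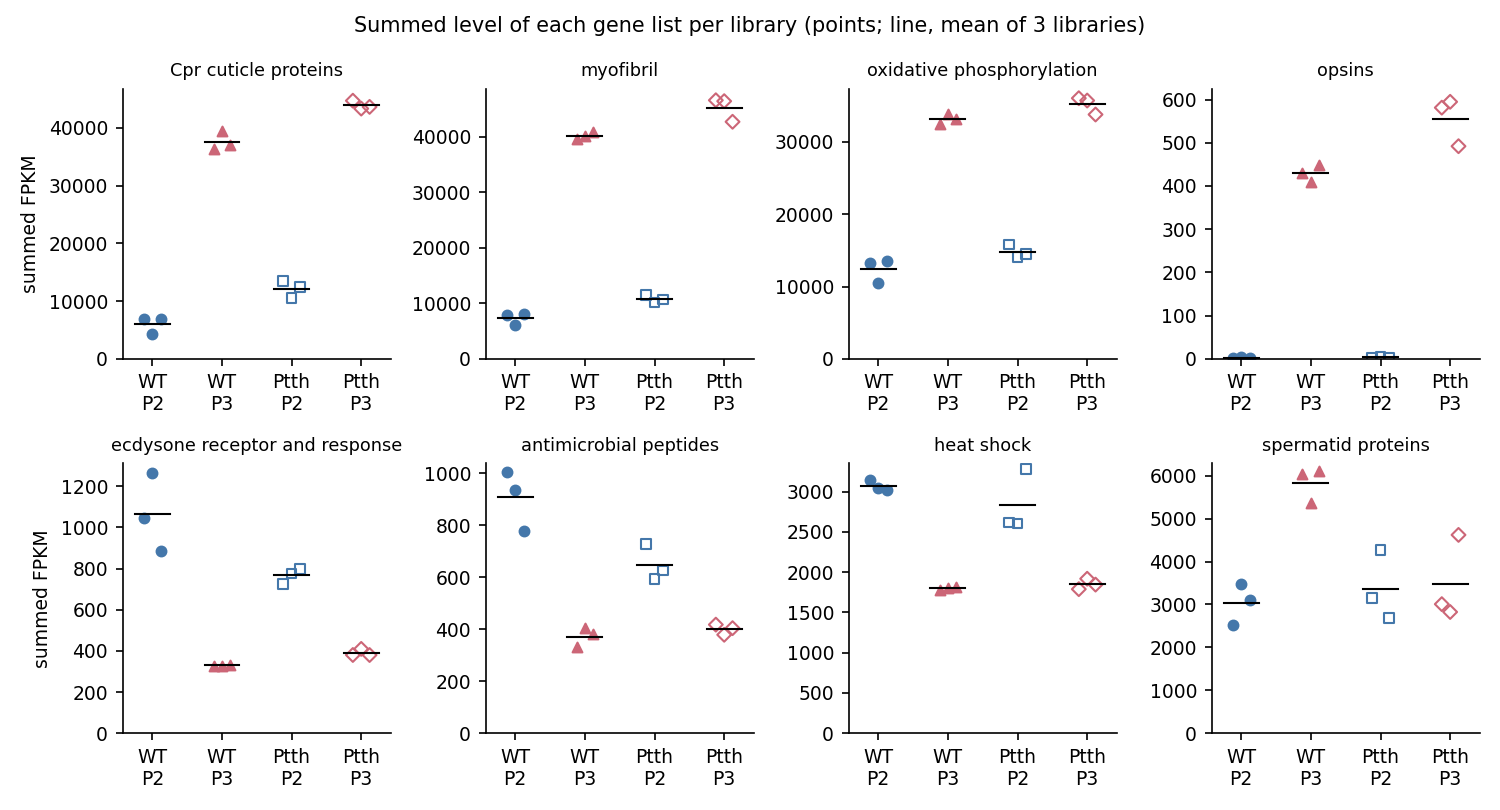
Summed FPKM of 8 gene lists in each library of wild type (filled) and *Ptth* mutants (open) at P2 and P3, with a line at the mean of 3 libraries and a linear axis from 0. Cuticle, muscle, respiratory and opsin sums are higher at P3 in both genotypes, ecdysone response, antimicrobial and heat shock sums are lower, and the spermatid sum is 5354 to 6111 at P3 against 2514 to 3466 at P2 in wild type and overlaps between the stages in the mutants.

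Oenocytes make the hydrocarbons that waterproof the adult. Of 11 genes of this list 6 rose and 0 fell (median 1.19). *Cyp4g1*, the oxidative decarbonylase of hydrocarbon synthesis, was at 93.7, 65.7 and 83.7 FPKM at P2 and 511, 486 and 524 FPKM at P3 (a log2 change of 2.65 ± 0.13 (SE) with an adjusted p of 3.6e-05). *bond*, an elongase, was at 9.04, 12.3 and 10.6 FPKM at P2 and 72.4, 67.9 and 80.2 FPKM at P3. The fatty acid synthase gene *v(2)k05816* (*FASN2*) was at 3.94, 2.42 and 3.96 FPKM at P2 and 43.5, 34.7 and 38.8 FPKM at P3. These 3 genes did not overlap between the stages. *CG18031* (*FarO*), a reductase, was at 17.3, 13.2 and 16.1 FPKM at P2 and 59.9, 56.6 and 58.0 FPKM at P3. In the fat body list (median -0.39) 2 of 16 rose (*GlyP* above and *Treh*, trehalase) and 1 fell, *Tps1*, trehalose-6-phosphate synthase, at 58.4, 54.9 and 54.6 FPKM at P2 and 22.6, 22.3 and 18.7 FPKM at P3 (log2 -1.36 ± 0.08 (SE), adjusted p = 6.4e-05). The larval serum proteins were not called.

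Of 14 heat shock genes 0 rose and 5 fell (median -0.18), the small heat shock proteins of chromosome 3L among them. *Hsp26* was at 554, 573 and 476 FPKM at P2 and 61.9, 61.1 and 57.7 FPKM at P3 (a log2 change of -3.12 ± 0.08 (SE) with an adjusted p of 4.2e-06). *Hsp27* was at 207, 208 and 190.2 FPKM at P2 and 43.6, 46.8 and 46.8 FPKM at P3. *Hsp67Bc* was at 158, 152 and 154 FPKM at P2 and 48.5, 45.2 and 43.3 FPKM at P3. Libraries within a stage were close in all of them. *Hsp23* fell too, and *Hsp67Ba* was at 6.91, 6.80 and 6.99 FPKM at P2 and 1.05, 0.564 and 0.610 FPKM at P3. The 5 tested *Hsp70* copies, whose reads can be shared, had means of at most 1.66 FPKM (*Hsp70Bb* at P2). Digestive enzymes gave 7 higher of 51 (median 0). The lysozymes *LysE* and *LysS* belong to a cluster of similar copies, between which reads may be split. *LysE* was at 0.521, 0.366 and 0.625 FPKM at P2 and 24.9, 22.3 and 25.3 FPKM at P3. *LysS* was at 0.384, 0.576 and 0.573 FPKM at P2 and 17.7, 16.9 and 16.3 FPKM at P3. *lambdaTry* and *etaTry*, trypsins, had log2 changes of 1.75 ± 0.07 (SE) and 1.69 ± 0.09 (SE).

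Reproductive lists were counted because the sex of the pools is not given. Of 24 accessory gland genes 7 rose and 0 fell (median 0.27). *PebIII*, also made outside the gland, was at 109, 78.1 and 107 FPKM at P2 and 544, 546 and 552 FPKM at P3 (log2 2.48 ± 0.14 (SE), adjusted p = 4.6e-05). *Acp32CD* was at 8.02, 7.19 and 7.5 FPKM at P2 and 33.3, 28.9 and 35.4 FPKM at P3. *Acp53Ea* and *Acp53C14a* were at 0 in all P2 libraries and at 5.85, 1.33 and 3.50 FPKM and 5.10, 1.58 and 5.10 FPKM at P3, and reached 91 ± 21.6 FPKM and 102 ± 22.2 FPKM at P4. Of 33 spermatid genes 11 rose and 0 fell (median 0.88), with sums of 2514, 3466 and 3108 FPKM at P2 and 6032, 5354 and 6111 FPKM at P3. *Mst84Dc* and *Pglym87* had log2 changes of 1.19 ± 0.18 (SE) and 1.12 ± 0.14 (SE), *janB* and *djl* 1.11 ± 0.13 (SE) and 1.10 ± 0.19 (SE). The sums did not overlap between the stages, and *roX1*, given above, moved the same way. In the mutants limma and limma-voom called 0 of the 33, 0 had an unadjusted p under 0.05, and the median was 0.01. In wild type the 11 calls became 1 by limma-voom or with median-of-ratios factors and 0 with quantile normalization or with the *roX1* level as a covariate, a fit of 12 libraries chosen after seeing the data. Because *roX1* itself differed between the wild-type stages, that covariate can also take up a change of stage. The loss of calls under it cannot tell the 2 apart. Without P2 replicate 1 the changes of *Pglym87*, *janB* and *djl* were 0.98, 0.97 and 0.90, under the limit. *roX2*, also of the dosage compensation complex, was at 7.82, 11.7 and 8.18 FPKM at P2 and 12.5, 12 and 12.5 FPKM at P3. *msl-2*, its male-specific protein, was at 6.07, 6.82 and 6.44 FPKM at P2 and 6.42, 6.63 and 6.90 FPKM at P3. Of 12 meiotic testis genes 0 were called by limma or limma-voom (8 at an unadjusted p under 0.05), and of 15 of the female germline and yolk 0 by limma and 2 higher and 2 lower by limma-voom (8 at an unadjusted p under 0.05).

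Several lists held few calls or none. Of 91 cytosolic ribosomal protein genes 0 were called by limma or limma-voom (median -0.10; 12 at an unadjusted p under 0.05), and 3 were called lower with quantile normalization. Of 30 ribosome biogenesis genes limma called 0 (median -0.32; 21 at an unadjusted p under 0.05) and limma-voom 1 lower. Of 26 cell death and autophagy genes limma called 0 (13 at an unadjusted p under 0.05) and limma-voom 1 lower. Neither called any of 8 juvenile hormone genes (3 at an unadjusted p under 0.05) or of 7 salivary glue genes (0). Of 39 cell cycle genes 1 was called, *stg*, the Cdc25 phosphatase, at 3.30, 3.50 and 2.51 FPKM at P2 and 10.01, 10.9 and 8.24 FPKM at P3, after 56.8 ± 1.60 FPKM at P1. Of 9 genes of sensory cilia *eys* alone was called.

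**Figure D4:**
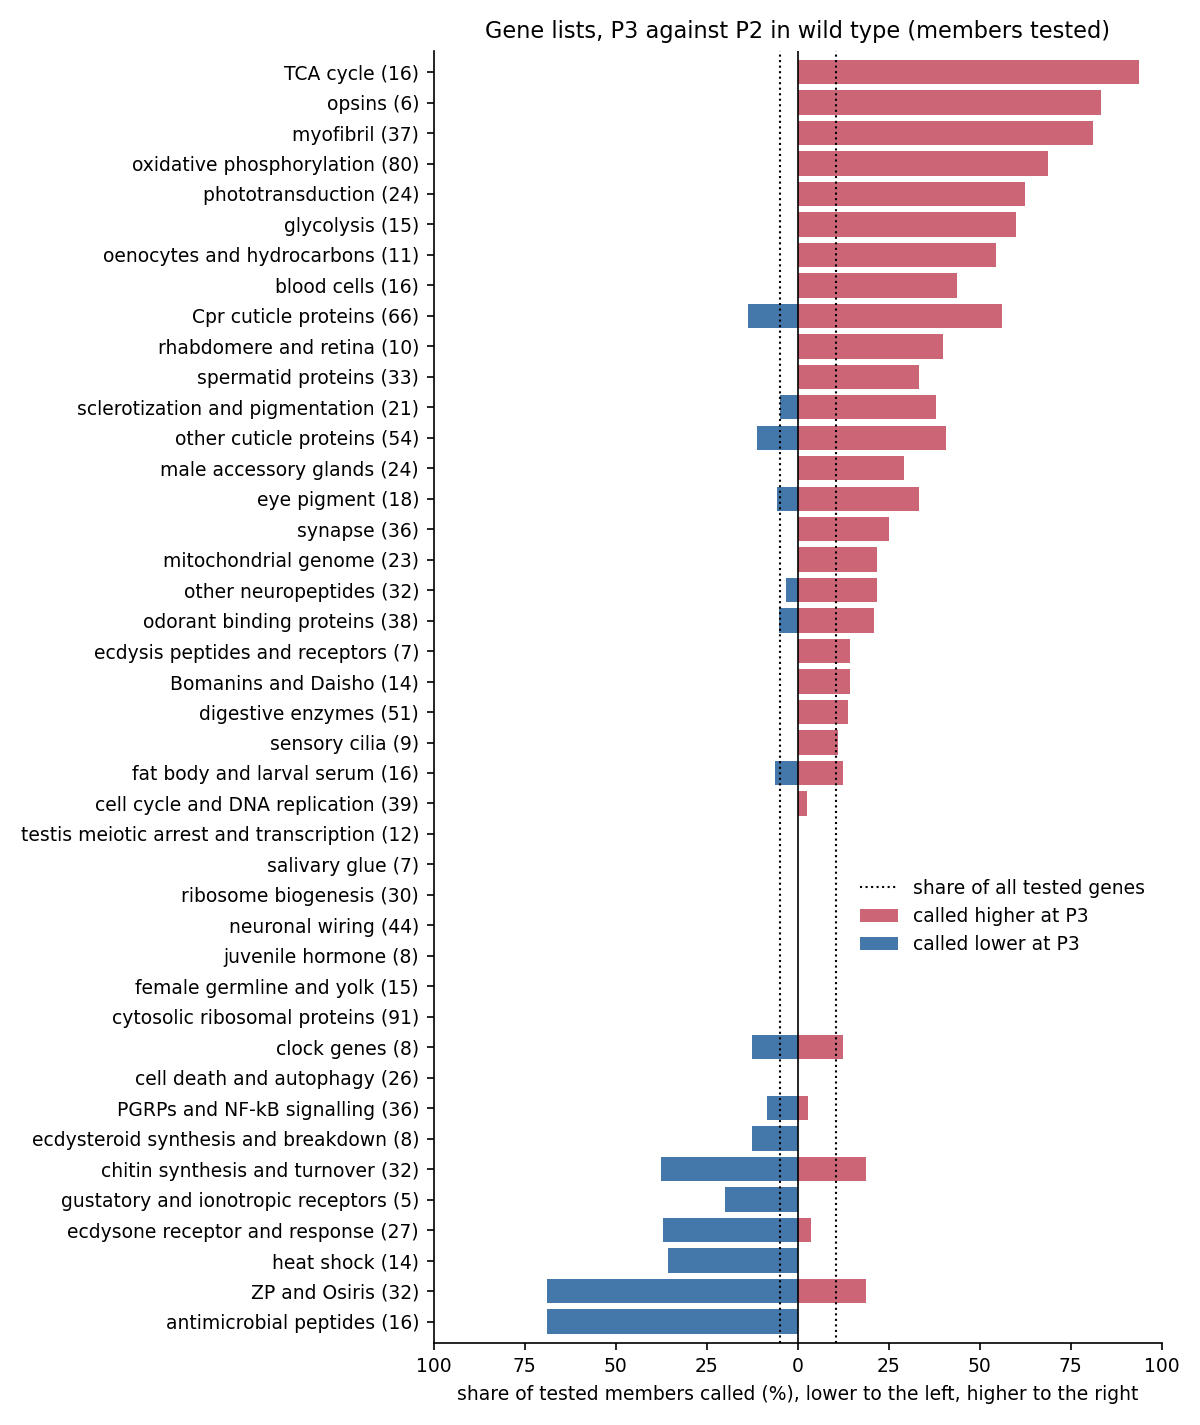
Share of the tested members of each list called higher (red, right) or lower (blue, left) at P3 in wild type, in percent, with the number of members tested in brackets and dotted lines at 10.4% and 4.84%, the shares of all tested genes. Lists with fewer than 5 tested members are left out, and the tricarboxylic acid (TCA) cycle, with 15 of 16, stands at the top and the antimicrobial peptides, with 11 of 16 lower, at the bottom.

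Some of the steepest changes belonged to genes that the file lists by a CG number. *CG13721* was at 0.148, 0.139 and 0.105 FPKM at P2 and 329.6, 373 and 377 FPKM at P3. *CG14147* was at 0.149, 0 and 0 FPKM at P2 and 248, 263 and 291 FPKM at P3. *CG15887* (*apn*) was at 0.131, 1.03 and 0 FPKM at P2 and 269, 346 and 305 FPKM at P3. These 3 were near 0 in every P2 library and rose. Those that fell began with *CG13154*, at 1257, 1084 and 1745 FPKM at P2 and 0.467, 0.823 and 0.403 FPKM at P3 (a log2 change of -9.75 ± 0.20 (SE) with an adjusted p of 2.1e-06). *CG42449* was at 1059.8, 596 and 1473 FPKM at P2 and 1.06, 0.803 and 0.782 FPKM at P3. *CG13358* was at 436, 469 and 699.6 FPKM at P2 and 0.789, 0.436 and 0.259 FPKM at P3. P2 replicate 3 was the highest library in each of these 3 genes. *CG10005* was at 1045, 980.2 and 1546 FPKM at P2 and 5.04, 5.81 and 4.87 FPKM at P3. All 4 fell to below 6 FPKM in every P3 library, and the next 3 did as well. *CG42367* was at 385, 259 and 481 FPKM at P2 and 1.09, 0.635 and 1.29 FPKM at P3. *CG12003* was at 484, 417 and 727 FPKM at P2 and 2.37, 1.94 and 1.58 FPKM at P3. *CG13720* was at 199, 182 and 184 FPKM at P2 and 0, 0.0811 and 0.193 FPKM at P3.

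Rises and drops could be close neighbours. Of 9485 pairs of tested genes next to each other on the chromosome arms, both were called in the same direction in 264 and in opposite directions in 98. In 9 of the 98, picked after their values were seen, both changed more than 16-fold. *CG13721* rose and *CG13720* fell, 1078 bases apart on the minus strand of chromosome 3L. *CG15887* rose between *CG15888* and *Osi22*, which both fell (log2 -5.33 and -6.57). *CG42367* fell 1140 bases from *Cpr30F*, which rose by 7.19, and *CG15005* fell 3498 bases from *Cpr64Aa*, which rose by 6.27. *Cpr76Bb* with *Cpr76Bc* and *Cpr73D* with *Obp73a* are given above, and the last 2 pairs were *CG13728* with *CG13731* and *CG15545* with *CG15546*. Of all tested genes 10.4% were called higher and 4.84% lower, so pairs of both kinds also arise without any link. The 264 and 98 pairs are therefore counts and are not read as a link between neighbours. How often unlinked pairs arise was not tested.

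The mutant pupae gave a second look at the same day from 6 libraries that had no part in the calls. Between P3 and P2 of the *Ptth* mutants 1009 genes (8.22%) were called higher and 458 (3.73%) lower. Of the 1280 genes that rose in wild type 903 rose in the mutants (70.5%, or 89.5% of those of the mutants), and of the 594 that fell 404 fell (68.0%, or 88.2%). In 0 genes were the calls opposite, and 1247 of the 1280 lay above 0 and 591 of the 594 below 0 in the mutants. *Osi15*, *Osi19*, *ninaE* and *se* had mutant log2 changes of 8.80, 9.20, 8.63 and 8.42, and *Osi3* and *CG13154* -9.08 and -8.54. Over the 8 stages of the mutants, 428 (33.4%) of the genes that rose in wild type were highest at P3 and 498 (38.9%) at P4, against 12.1% and 15.1% of all tested genes. Of those that fell 283 (47.6%) were highest at P2 and 161 (27.1%) at P1, against 9.87% and 18.3%.

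The change from P2 to P3 differed between the genotypes in 86 genes (0.7%), 54 of them called in wild type. The log2 change in the mutants lay above that in wild type in 48 and below it in 38. Among the genes named here these were 14, namely 8 Osiris genes, *m*, *ImpE2*, *Obp56a*, *Dro*, *CG13720* and *CG13731*. *Osi9* had a mean of 976 FPKM at P2 and 303 FPKM at P3 in wild type (log2 -1.59 ± 0.35 (SE)), and its mutant change was 0.20 (adjusted p of the difference 0.046). *Osi7* and *Osi8* fell by less in the mutants as well (-4.63 against -6.04, and -2.96 against -4.65). All 3 started lower in the mutants, with P2 means of 325 FPKM for *Osi9*, 1073 FPKM for *Osi7* and 68.6 FPKM for *Osi8*. In wild type *Osi7* and *Osi8* had P2 means of 1898 FPKM and 251 FPKM. Their P3 means were 27.8 FPKM and 8.39 FPKM in wild type and 42.6 FPKM and 7.91 FPKM in the mutants. The members that rose gave adjusted p-values of the difference from 0.26 (*Osi15*) to 0.96 (*Osi13*), which does not show that they changed alike. The antimicrobial list had 1 higher and 6 lower of 16 in the mutants (median -0.46), and the difference of the change was called for *Dro* alone. This count of 86 was unstable: it was 20 without P3 replicate 1 of wild type and 978 without P3 replicate 3 of the mutants.

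**Figure D5:**
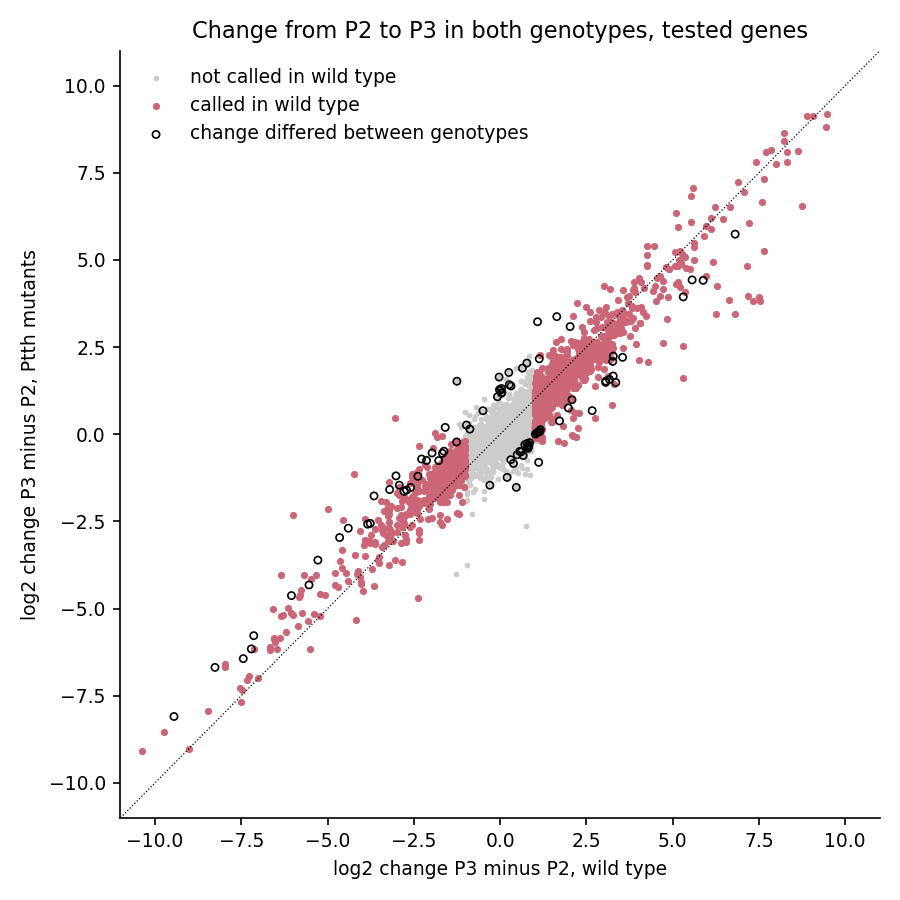
Log2 change from P2 to P3 in wild type (x axis) and in *Ptth* mutants (y axis) for all 12282 tested genes, with genes called in wild type in red, genes whose change differed between genotypes as open circles, and a dotted line where both changes are equal. Of the called genes 1247 of 1280 that rose lie above 0 and 591 of 594 that fell lie below 0 on the y axis.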

How the data were processed

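Whole-body poly(A) RNA of wild type and *Ptth* mutants was sequenced at 8 stages in 3 pools each, and the file gives 1 column per library, 48 in all. The values are FPKM deposited by the authors. The submitters' processing notes name HISAT2 2.0.5, featureCounts 1.5.0-p3 and the BDGP 6 build, whereas the paper's methods name STAR, htseq-count and DESeq2 for the same libraries, and which of them made the file was not resolved. In every library 100% of the values came out as whole reads within 0.001 read, which gave the depth of each library. The strand setting and the treatment of reads with several matches are not given in the sources used here. Gene IDs were matched to a RefSeq table (17252 of 17558 found, 16959 with the same coordinates), which was used for current symbols. By the biotypes of the file, 11738 tested genes were protein coding. Coordinates are those of the file.

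Genes with at least 3 FPKM in any library (12282) were tested on log2(FPKM + 1) with limma 3.58.1 (lmFit, eBayes with an intensity trend, two-sided) in R 4.3.3, with p-values adjusted by Benjamini-Hochberg over all of them and a change above 2-fold. The 6 wild-type libraries of P2 and P3 entered the fit. The 6 mutant libraries were fitted in the same way, and the difference of the 2 changes was tested in a fit of 12 libraries. Samples were grouped by their GEO labels. Nothing says that replicates came from separate cultures, so p-values measure the spread between pools.

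The comparison and its 44 gene lists were chosen with earlier results of these data known, and 27 list entries were not matched to the table. Lists are described by counts and medians of log2 changes, beside the same values over all genes. The genes named are the 12 largest rises and drops among called genes with at least 10 FPKM at either stage and no overlap, up to 4 called members per list with the largest changes, every tested opsin, antimicrobial peptide, ecdysis and ecdysone response gene, and *roX1*, *roX2*, *msl-2* and *Ptth*. Other genes named were chosen after their values were seen. Alternatives were a pseudocount of 0.1, no filter, a 1.5-fold limit, median-of-ratios and quantile scaling, limma-voom on the recovered reads, all 48 libraries in the fit, a replicate block and leaving out each library. The scripts were tested on simulated data. Tables and plots used Python 3.11.15, pandas 2.3.3, numpy 2.4.6, scipy 1.17.1 and matplotlib 3.10.9.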

Additional observations from a re-analysis of the deposited data

Results flagged for a closer look

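For 14 of the genes named in the text, 6 of them named by the rule, the change from P2 to P3 differed between the genotypes (limma on 12 libraries, two-sided, adjusted over all tested genes). The differences below are log2 changes of the mutants minus those of wild type. In the antimicrobial peptide gene *Dro* (drosocin) the difference was 2.77 ± 0.62 (SE), with a change of -1.25 in wild type and 1.52 in the mutants (adjusted p = 0.046). Its mutant libraries were at 6.38, 5.45 and 6.05 FPKM at P2 and 22.2, 20.6 and 14.8 FPKM at P3. *Obp56a*, an odorant binding protein, fell by less in the mutants, with a difference of 1.88 ± 0.30 (adjusted p = 0.021). It was at 277, 253 and 306 FPKM at P2 and 75.9, 104 and 66.7 FPKM at P3 of the mutants.

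*Osi1* and *Osi12* differed by 1.57 ± 0.31 and 1.35 ± 0.29 (adjusted p = 0.034 and 0.042). *Osi1* was at 85.5, 110.1 and 131 FPKM and *Osi12* at 724, 1057 and 1048 FPKM in the mutant P2 libraries. The ecdysone-inducible gene *ImpE2* differed by 1.46 ± 0.32 (adjusted p = 0.043), and *CG13720* by 1.01 ± 0.15 (adjusted p = 0.015). *CG13720* had P2 means of 188 FPKM in wild type and 92.8 FPKM in the mutants, and P3 means of 0.0913 FPKM and 0.0769 FPKM. Of the other Osiris genes, the difference was 1.42 ± 0.29 for *Osi7* (adjusted p = 0.036), 1.69 ± 0.38 for *Osi8* (adjusted p = 0.046) and 1.79 ± 0.41 for *Osi9* (adjusted p = 0.046). It was 1.15 ± 0.25 for *Osi2* (adjusted p = 0.041), 1.14 ± 0.24 for *Osi24* (adjusted p = 0.041) and 1.04 ± 0.24 for *Osi17* (adjusted p = 0.046). The ZP domain gene *m* (miniature) differed by 1.67 ± 0.36 (adjusted p = 0.043). Of the 14 genes 11 had log2 changes below 0 in both genotypes. The exceptions were *Dro*, *Osi9* (-1.59 in wild type and 0.20 in the mutants) and *CG13731*, which was higher at P3 in both (5.56 and 4.43, a difference of -1.14 ± 0.24, adjusted p = 0.039). The set of genes with such a difference was sensitive to single libraries, with 20 to 978 genes when 1 library was left out.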

How the results depend on the processing

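The count of 1874 genes called between P2 and P3 of wild type was between 1696 and 2078 without single libraries, 2305 by limma-voom, 2491 with a pseudocount of 0.1 and 4351 (3180 higher, 1171 lower) at a 1.5-fold limit. The mutants' count of 1467 was 2593 at 1.5-fold. The 86 genes whose change differed between genotypes became 285 with all 48 libraries in the fit, 155 by limma-voom, 139 with quantile normalization and 254 at 1.5-fold. Without single libraries they ranged from 20 to 978. The count was 20, 43 and 30 without P3 replicates 1, 2 and 3 of wild type, and 160 without P2 replicate 3 of wild type. It was 25, 38 and 54 without P2 replicates 1, 2 and 3 of the mutants, and 23, 28 and 978 without P3 replicates 1, 2 and 3 of the mutants. The cause was not tested. Of 143 called genes among the 175 named, 15 lost the call under at least 1 of 18 settings and 5 others only in the fit with P2 replicate 2 as the sole P2 library, and 0 turned direction. Of the 32 uncalled, *AttB*, *Dro* and *Rh6* were called under some. Near-zero changes turned sign: with the *roX1* level as a covariate *br* was 0.20, *ImpL3* 0.067, *roX2* -0.031 and *msl-2* -0.13. By limma-voom *tai* was -0.079 and *msl-2* -0.10, with median-of-ratios factors -0.069 and -0.088, and with quantile normalization -0.076 and -0.10, where *Ptth* was -0.19 (all log2). The *roX1* covariate, the fit with P2 replicate 2 alone and that of 12 libraries (1722, 1769 and 1877 genes called) were chosen after seeing the data. The fit with P2 replicate 2 alone took that library for its high *roX1*, takes its spread from the P3 libraries alone and assumes that P2 varies like them, so its values are a description. In it *Eh* was -0.25, *Eip55E* 0.0037, *tai* -0.049 and *msl-2* -0.032 on the log2 scale, and 0 of 33 spermatid and 12 of 23 mitochondrial genome transcripts passed.

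Whether replicate numbers shared by the groups pair the samples was not settled. Deviations of same-numbered P2 and P3 libraries correlated at -0.0786, -0.213 and -0.00272 in wild type and at 0.136, -0.419 and -0.512 in the mutants. Deviations from a mean of 3 libraries sum to 0, so these values are tied to each other and cannot exclude pairing. The highest mutant value was 0.594, between P2 replicate 2 and P3 replicate 3. With the replicate block 1869 genes were called in wild type, 1443 in the mutants and 41 for the difference, and *DptB* and *AttC* lost their calls. Genes under 1 FPKM at both stages cannot reach the 2-fold limit on the log2(FPKM + 1) scale.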

Other observations

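Other gene families were counted beside the 10.4% of all tested genes called higher and the 4.84% called lower. Of 69 tested cytochrome P450 genes 18 rose and 5 fell (26.1% and 7.25%). *Cyp4c3* had a mean of 0.595 FPKM at P2 and 56.2 FPKM at P3 (log2 change 5.17), and *Cyp303a1*, known for a role in bristle development, 97.0 FPKM and 1.05 FPKM (log2 change -5.56). Of 35 glutathione S-transferase genes 6 rose and 5 fell (17.1% and 14.3%). *GstS1*, abundant in flight muscle, had means of 228 FPKM and 1617 FPKM, and *GstD4* of 13.5 FPKM and 0.538 FPKM. Of 23 serpins 2 rose and 2 fell (8.70% each), too few to set apart from the shares of all genes. Among them, *Spn43Aa* had means of 390.4 FPKM and 24.7 FPKM.

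Of 72 mitochondrial ribosomal protein genes 0 were called by limma or limma-voom (median log2 change 0.37), and 54 had an unadjusted p under 0.05. Of 335 long noncoding RNA genes 21 rose and 20 fell (6.27% and 5.97%, against 10.4% and 4.84% of all tested genes). Of 12 tested genes of the Y chromosome 0 were called by limma and 2, both higher, by limma-voom (8 at an unadjusted p under 0.05), with a median log2 change of 0.72 in wild type and -0.10 in the mutants. These families were looked up after the values were seen.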
